A study of Mus musculus with 12 samples.

Results

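Complement genes were followed in the medial prefrontal cortex of adult mice whose mothers had received the viral mimic poly(I:C) or saline in pregnancy. The 9 genes were grouped by function, as components (C1qa, C1qb, C1qc, C3, C4b), receptors (C3ar1, C5ar1, Itgam) and an inhibitor (Serping1), and each gene was read from its brightest probe set over the 12 arrays. Of the 9 genes 7 had a probe set annotated to that gene alone, out of 18820 gene symbols in the series. C3 was not named by any annotated probe set, and the probe set that lists C4b also lists its near-identical neighbour C4a, so neither gene is given a value. Each of the 7 had a single probe set.

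The series held 6 control and 6 PolyI:C offspring of the strain C57BL/6N (C57BL/6 in other labels), aged 12 weeks, with 1 array an animal. Mothers of the PolyI:C group received poly(I:C), an artificial double-stranded RNA, at 5 mg/kg intravenously on gestation day 17, and mothers of the control group received saline by the same route. All offspring had gone through behavioural and cognitive tests before the tissue was taken, and no genetic modification is named for either group. The comparison asks what prenatal immune activation leaves behind in the adult cortex. The labels call the samples biological replicates and name neither litter nor array strip, so littermates may be among them, and the p-values speak for the variation between individual mice only.

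Complement is a cascade of secreted proteins that tags targets for removal. In its classical branch C1q, built from the A, B and C chains, binds a target and activates proteases that cleave C4 and C3; fragments of C3 tag the target for phagocytes through receptors such as CR3, whose alpha chain is encoded by Itgam, while the small fragments C3a and C5a act on the receptors encoded by C3ar1 and C5ar1. Serping1 encodes C1 inhibitor, which blocks the C1 proteases. In the brain microglia are the main source of C1q and carry CR3, and in the developing visual system C1q and C3 are known to tag synapses that microglia then remove.

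The C1q chains are encoded side by side, with no other protein-coding gene among the 3 in the RefSeq gene table. The 250 bases before the RefSeq start of C1qb and C1qc are shown because both chains enter the same protein. They come from the RefSeq promoter table (GRCm38.p6), at chr4:136886201-136886450 and chr4:136892915-136893164, both on the minus strand, and are written 5′ to 3′ in the direction of transcription. Capitals mark GAGGAA or its reverse complement, the core letters bound by PU.1, a transcription factor of myeloid cells.
C1qb: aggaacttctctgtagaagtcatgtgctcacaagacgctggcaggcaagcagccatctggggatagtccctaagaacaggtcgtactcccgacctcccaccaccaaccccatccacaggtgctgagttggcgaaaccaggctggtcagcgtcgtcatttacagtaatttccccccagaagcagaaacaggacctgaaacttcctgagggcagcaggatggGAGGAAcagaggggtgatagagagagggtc
C1qc: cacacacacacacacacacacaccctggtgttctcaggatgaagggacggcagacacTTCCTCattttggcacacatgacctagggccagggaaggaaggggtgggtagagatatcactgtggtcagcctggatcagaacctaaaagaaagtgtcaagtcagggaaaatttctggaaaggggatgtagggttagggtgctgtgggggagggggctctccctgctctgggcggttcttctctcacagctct
Each window held 1 match, 30 bases before the start on the coding strand in C1qb and 193 bases before it on the opposite strand in C1qc. These letters were searched on both strands and occurred in 23.3% of the 32851 promoter windows of 250 bases. Neither window held the core of the interferon-stimulated response element (GAAA, any 2 bases and GAAA, in 2.98% of windows) or the gamma-activated site (TTCNNNGAA, in 7.02%). Of the 9 genes 6 had an entry in the promoter table, and C1qa, C4b and Serping1 had none. Among the windows not shown, that of Itgam held 2 matches to the PU.1 letters, and those of C3, C3ar1 and C5ar1 held 0. None of these windows held either interferon-related motif.

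One of the 7 measured complement genes differed between the groups past the adjusted threshold, the C5a receptor gene C5ar1, which was lower in PolyI:C offspring by 0.14 on the log2 scale, a fold of 0.91. Its probe set was dim. The C1q chains, C3ar1, Itgam and Serping1 did not pass. The limma fit called 2.83% of 23099 annotated probe sets at an adjusted p under 0.05 (2.02% as higher, 0.805% as lower), so a single call among 7 genes is too few to be read against that share. At an unadjusted p under 0.05 the count was also 1 of 7, where 19.1% of all probe sets passed. Under the alternatives this unadjusted count ran from 0 with the brightness filters to 3 without control 6. The median difference of the 7 genes was -0.07 and that of all annotated probe sets 0.003. Means were lower in PolyI:C offspring for 6 of the 7 genes and for 48% of all probe sets. In whole tissue, fewer cells of a type and less RNA per cell cannot be told apart.

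**Figure D1:**
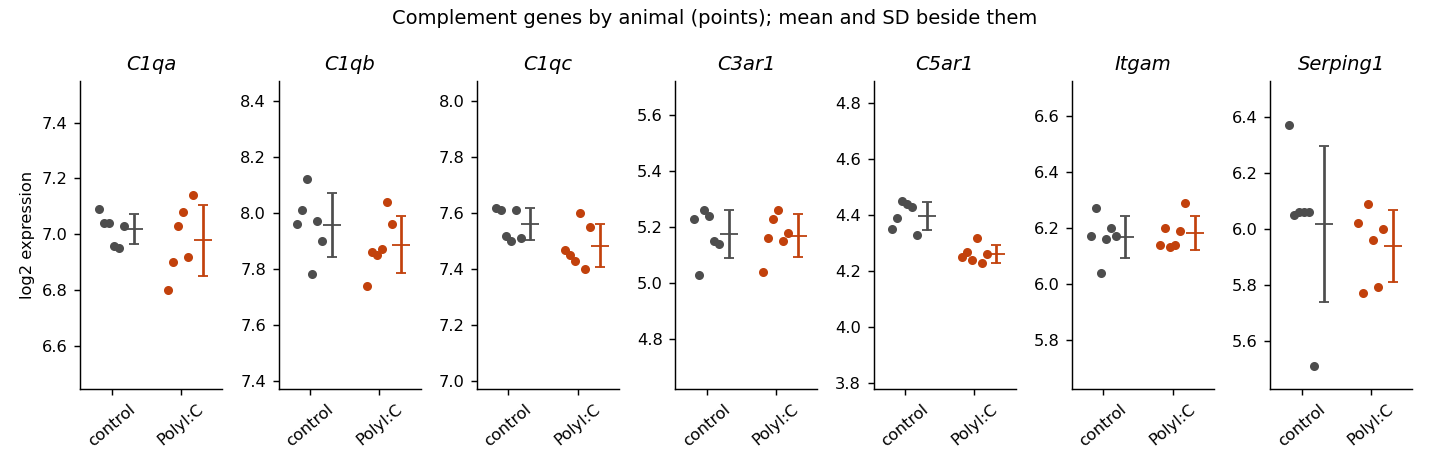
Log2 expression (y axis, each panel spanning the same width of the scale) of the 7 measured complement genes in 6 control and 6 PolyI:C animals, 1 point an animal in replicate order, with the group mean and SD as a bar to the right of the points. C5ar1 is the one panel in which the groups do not overlap, and Serping1 is the one with the widest spread, from 5.51 to 6.37 in controls.

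Array medians lay between 5.15 and 5.21, and any pair of arrays correlated at r = 0.994 to 0.998 across probe sets, which are not independent replicates. All 8 measured cortical neuron markers were bright, from 8.01 for Neurod6 to 11.59 for Snap25. Of 17 measured microglia markers 16 lay above the brightness that dim, silent genes reach, as defined next. All 12 animals read Xist, a female-expressed RNA, at 3.13 to 3.22. In all 12 the Y-linked genes Kdm5d (6.18 to 6.50), Uty (6.19 to 6.45) and Eif2s3y (5.29 to 6.85) lay above the brightness of silent genes. By these genes every animal read as male. Calls over the whole array leaned to higher (467 higher, 186 lower), a split that was 239 and 285 after quantile normalization and 298 and 232 after centring each array on its median.

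Brightness was judged against 1182 probe sets of olfactory and vomeronasal receptors, genes of sensory epithelia taken here as silent in cortex. Their median was 3.37 and their 95th percentile 4.50 on the log2 scale. C1qb (mean over 12 animals 7.92), C1qc (7.52) and C1qa (7.00) lay far above that level and were brighter than 81.4%, 75.9% and 68.3% of annotated probe sets. Itgam (6.17), Serping1 (5.98) and C3ar1 (5.17) also lay above it, C3ar1 being brighter than 98.9% of the silent receptors. C5ar1, at 4.33, lay below the 95th percentile and was brighter than 91.1% of them, so 6 of the 7 genes were measured above this background and the one that passed the test was not. These values rank probe sets by brightness and do not compare the amounts of the transcripts.

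**Figure D2:**
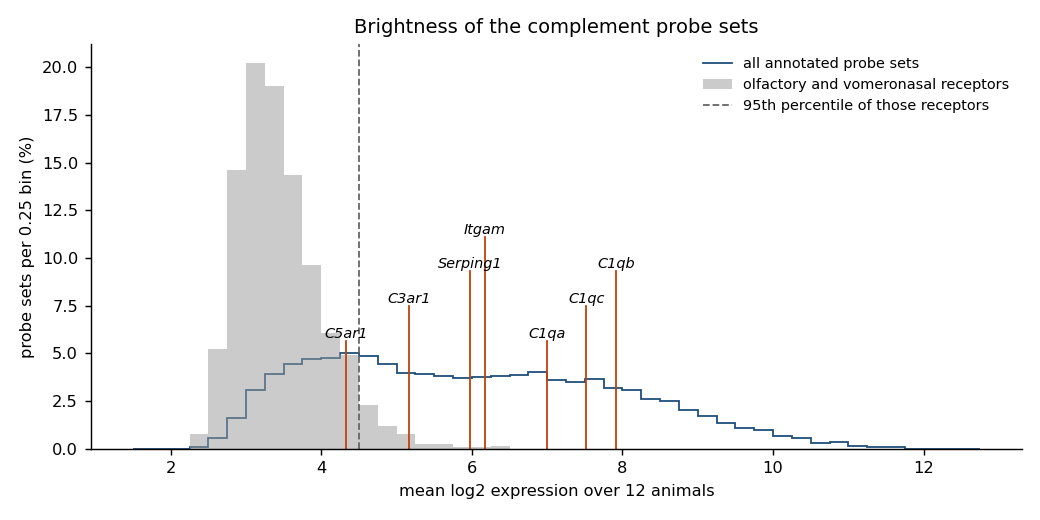
Distribution of mean log2 expression over 12 animals (x axis) for all annotated probe sets (line) and for olfactory and vomeronasal receptors (grey), as percent of probe sets in each bin of 0.25 (y axis), with the complement genes as vertical lines whose height carries no value. C5ar1 at 4.33 lies left of the dashed 95th percentile of the receptors at 4.50, and the other 6 genes lie right of it.

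The 3 chains of C1q, the recognition protein of the classical branch, had slightly lower means in PolyI:C offspring and none passed. C1qa ranged from 6.95 to 7.09 in controls (median 7.03) and from 6.80 to 7.14 in PolyI:C animals (median 6.97). The PolyI:C group held both the lowest and the highest animal, PolyI:C 1 and PolyI:C 6, and only 2 of its 6 animals lay within the control range. The difference was -0.04 ± 0.05 (moderated SE, 6 against 6; limma adjusted p = 0.69). It was -0.007 without PolyI:C 1, -0.074 without PolyI:C 6 and -0.076 after quantile normalization.

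C1qb, the brightest of the set, ranged from 7.78 to 8.12 in controls (median 7.97) and from 7.74 to 8.04 in PolyI:C animals (median 7.86). The groups overlapped, with 5 of 6 PolyI:C animals inside the control range and 5 of 6 below the control mean, control 3 highest and PolyI:C 1 lowest. The difference was -0.07 ± 0.05 (limma adjusted p = 0.49), and it ran from -0.040 without control 3 to -0.107 without control 4.

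C1qc came nearest to the threshold among the chains. It ranged from 7.50 to 7.62 in controls (median 7.57) and from 7.40 to 7.60 in PolyI:C animals (median 7.46), and 5 of 6 PolyI:C animals lay below the control mean. PolyI:C 4 and PolyI:C 6 were inside the control range and the other 4 below it. The difference was -0.08 ± 0.04, with an unadjusted p of 0.062 and a limma adjusted p of 0.29. It ran from -0.062 without PolyI:C 5 to -0.102 without PolyI:C 4 (unadjusted p = 0.0149, limma adjusted p = 0.17). After quantile normalization it was -0.114 (unadjusted p = 0.00663, limma adjusted p = 0.113). The 95% confidence interval of the fold was 0.89 to 1.00 for C1qc, 0.88 to 1.03 for C1qb and 0.90 to 1.04 for C1qa.

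Averaged over the chains, C1q stood at 7.51 ± 0.06 in controls and 7.45 ± 0.08 in PolyI:C offspring (SD, n = 6 each). The lowest animal was PolyI:C 1 at 7.34, followed by PolyI:C 2 at 7.40 and control 4 at 7.41, while control 3 stood at 7.56 and controls 1 and 2 and PolyI:C 6 at 7.55. The highest 4 animals were thus 3 controls and 1 PolyI:C animal, and the lowest 2 were both PolyI:C.

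Among the receptors, C5ar1, whose protein binds C5a and draws in phagocytes, ranged from 4.33 to 4.45 in controls (median 4.41) and from 4.23 to 4.32 in PolyI:C animals (median 4.25). The groups did not overlap, but control 6 at 4.33 and PolyI:C 4 at 4.32 were adjacent. Groups without overlap occurred in 2.37% of all probe sets. Means were 4.40 ± 0.05 and 4.26 ± 0.03 (SD, n = 6 each), and the difference was -0.14 ± 0.03 (moderated SE; fold 0.91, 95% confidence interval 0.87 to 0.95; limma adjusted p = 0.026).

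Every C5ar1 value lay under 4.50, the 95th percentile of the silent receptors, and among the 6507 probe sets dimmer than that level 0.845% were called, 0.599% as lower. The call was lost without control 2, control 3, PolyI:C 1 or PolyI:C 3 (limma adjusted p = 0.0584, 0.0574, 0.0597 and 0.053) and with the replicate block (0.0525), with differences from -0.129 to -0.152 over all animals left out in turn. A fit without the dimmest quartile of probe sets, those under 4.34, no longer held C5ar1.

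C3ar1, the receptor gene for C3a, ranged from 5.03 to 5.26 in controls (median 5.19) and from 5.04 to 5.26 in PolyI:C animals (median 5.17). The ranges nearly coincided, with control 2 and PolyI:C 1 lowest. The difference was -0.01 ± 0.04 (limma adjusted p = 0.95), and the interval of the fold ran from 0.93 to 1.06. It was above 0 without control 1, control 3, control 4 or PolyI:C 1, up to 0.018.

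Itgam, the alpha chain of CR3 and a surface marker of microglia and other myeloid cells, was the one member with a higher mean. It ranged from 6.04 to 6.27 in controls (median 6.17) and from 6.13 to 6.29 in PolyI:C animals (median 6.17). PolyI:C 6 and control 2 were highest and control 3 lowest, and 5 of 6 PolyI:C animals lay within the control range. The difference was 0.01 ± 0.04 (limma adjusted p = 0.90; fold interval 0.95 to 1.07), and its sign turned when control 3 (-0.014) or PolyI:C 6 (-0.009) was left out and when the arrays were quantile normalized (-0.008).

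Serping1, the C1 inhibitor gene, varied most between animals. It ranged from 5.51 to 6.37 in controls (median 6.06) and from 5.77 to 6.09 in PolyI:C animals (median 5.98). Of the 6 controls 4 stood at 6.05 or 6.06, control 1 at 6.37 and control 6 at 5.51, and all 6 PolyI:C animals fell between these ends. The SD was 0.28 in controls and 0.13 in PolyI:C animals, and the difference was -0.08 ± 0.10 (limma adjusted p = 0.71). The interval of the fold, 0.82 to 1.10, was the widest of the set, and the difference shrank to -0.008 or grew to -0.182 when 1 animal was left out.

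The further genes of the cascade, 56 by role from initiation to receptors, were read in the same fit, and 47 had a probe set of their own. Cfp rose and none fell, so 2.13% of them were called beside 2.83% of all probe sets, and 8 (17.0%) had an unadjusted p under 0.05 beside 19.1%. Their median difference was -0.02. Both shares were near those of all probe sets, and 22 of the 47 genes were dimmer than the 95th percentile of the silent receptors.

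Of 12 genes that start the classical and lectin branches none passed, and 8 were as dim as the silent receptors. The differences ran from -0.10 ± 0.05 for C1s1, a protease of the C1 complex, to 0.03 ± 0.04 for Masp1, a protease of the lectin branch. None of the 12 had an unadjusted p under 0.05.

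The alternative branch was represented by Cfp and Cfb. Cfp encodes properdin, which stabilises the enzyme that cleaves C3, and ranged from 5.19 to 5.41 in controls (median 5.30) and from 5.38 to 5.55 in PolyI:C animals (median 5.49). All 6 PolyI:C animals lay above the control mean, 1 of them inside the control range. The difference was 0.18 ± 0.04 (fold 1.13, 95% confidence interval 1.06 to 1.20; limma adjusted p = 0.032).

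The Cfp call was lost without control 1, 2, 3 or 6 or without PolyI:C 1, 4 or 6 (limma adjusted p from 0.0559 without PolyI:C 4 to 0.0765 without PolyI:C 1). It was also lost with the replicate block (0.064), with all rows tested (0.0622) and without moderation (0.0835). Cfb, the protease of the same enzyme, stood at 4.37 ± 0.05 and 4.37 ± 0.07 (SD, n = 6 each; difference 0.0018, limma adjusted p = 0.99).

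None of 6 measured genes of the membrane attack complex passed. C8b was at -0.11 ± 0.04 (unadjusted p = 0.011, limma adjusted p = 0.12) and C8g at 0.08 ± 0.04 (limma adjusted p = 0.31), both being parts of the C8 protein. Of the 6 genes 4 were as dim as the silent receptors, among them C8b with a mean of 4.37.

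Of 18 measured regulators none passed, and 5 had an unadjusted p under 0.05. Vtn, encoding vitronectin, which keeps the attack complex from inserting into membranes, was bright, lying between 8.08 and 8.30 in controls (median 8.18) and at 8.07 or less in all PolyI:C animals (median 8.05). The groups did not overlap, and the difference was -0.14 ± 0.04 (limma adjusted p = 0.052). It passed without control 4 (limma adjusted p = 0.0401) or control 6 (0.0358), without controls 5 and 6 (0.0426), after quantile normalization (-0.171, 0.0214), without probe sets dimmer than the 25th (0.0452) or the 50th percentile (0.0341) and with trend and robust (0.0389), and did not pass under the other 15 alternatives.

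Csmd3, a large neuronal membrane protein with complement-control domains, was read by 7 probe sets, all with higher means in PolyI:C offspring. The brightest ranged from 7.28 to 7.52 in controls and from 7.40 to 7.72 in PolyI:C animals, and its difference was 0.19 ± 0.05 (limma adjusted p = 0.062). The differences of the 7 probe sets ran from 0.07 to 0.21, 5 had an unadjusted p under 0.05, and none passed (limma adjusted p from 0.062 to 0.30). The brightest passed without control 4 (limma adjusted p = 0.0471) or PolyI:C 2 (0.0172), under the brightness filter at the 50th percentile (0.0437) and with trend and robust (0.0451).

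The other 3 regulators with an unadjusted p under 0.05 were Csmd1, a relative of Csmd3, at 0.09 ± 0.04, Cd46, a membrane cofactor for the breakdown of C3b and C4b, at 0.16 ± 0.05, and Cfhr2 at -0.13 ± 0.06 (limma adjusted p = 0.22, 0.075 and 0.25). The Cd46 probe set was dim, with a mean of 4.13, and the second probe set of Cfhr2 differed by -0.04.

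Among 9 further receptors and binding proteins none passed. C1qbp, a mitochondrial protein that can bind the globular heads of C1q, had the largest difference at 0.08 ± 0.04 (limma adjusted p = 0.20), and Vsig4, a receptor of tissue macrophages, the lowest at -0.08 ± 0.04 on a probe set as dim as the silent receptors (limma adjusted p = 0.28).

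**Figure D3:**
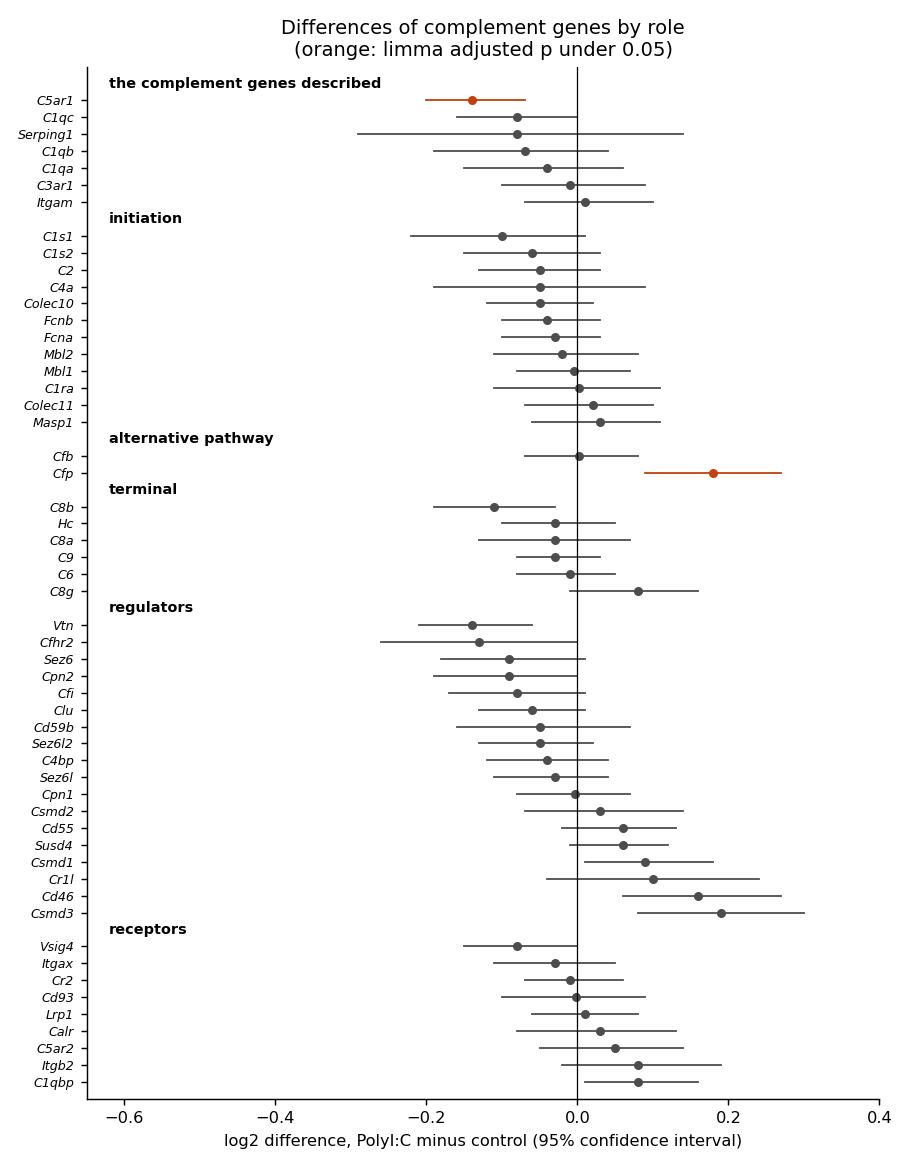
Log2 difference, PolyI:C minus control, of each measured complement gene (points) with its 95% confidence interval (lines), grouped by role and ordered by difference. Intervals of most genes include 0, and the 2 genes past the adjusted threshold, C5ar1 at -0.14 and Cfp at 0.18, are in orange.

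**Figure D4:**
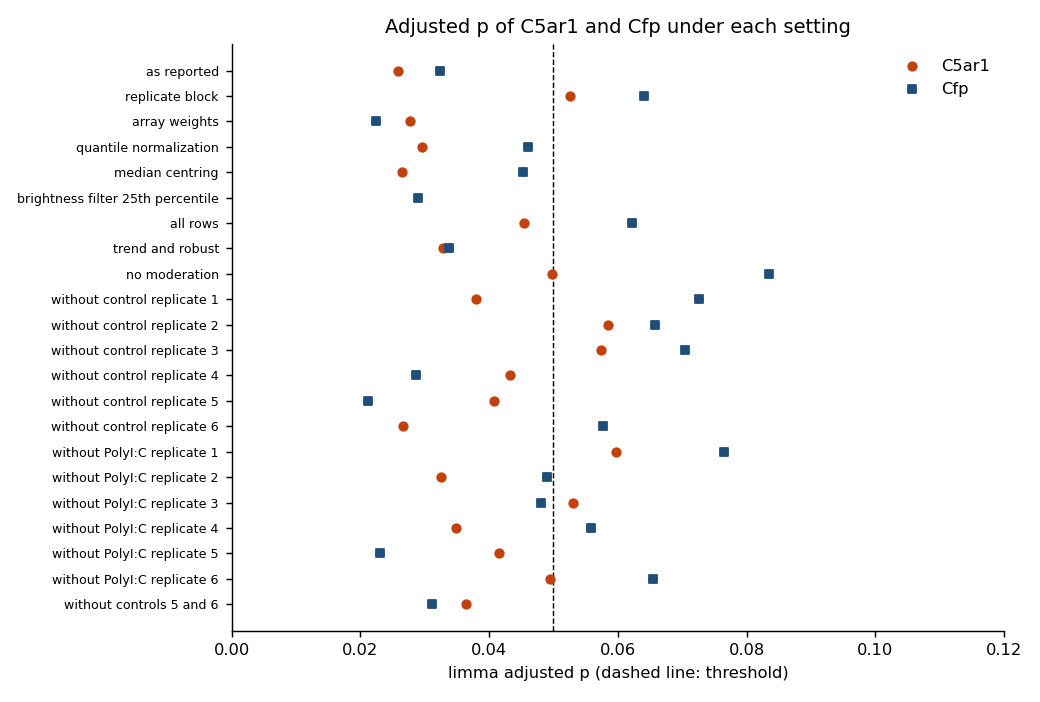
Limma adjusted p (x axis) of C5ar1 (circles) and Cfp (squares) as reported and under each alternative (y axis), with the threshold as a dashed line. C5ar1 runs from 0.0259 as reported to 0.0597 without PolyI:C 1, and Cfp from 0.0212 without control 5 to 0.0835 without moderation; neither is drawn where a brightness filter removes it.

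How the complement genes varied from animal to animal was examined after removing the group means. Over the 12 animals C1qa and C1qc correlated at r = 0.52 (rho = 0.45), C1qa and C1qb at r = 0.39 (rho = 0.33), and C1qb and C1qc at r = 0.09 (rho = 0.21). None passed in the permutation test within groups (100000 permutations, two-sided; p = 0.15, 0.22 and 0.79 for r and 0.22, 0.30 and 0.52 for rho; adjusted over 8 correlations 0.60, 0.60 and 0.80 for r). Without the 2 animals farthest from the median of the first gene, r was 0.52, 0.06 and 0.02. The SD of a chain within a group was 0.05 to 0.12, which limits what these correlations can show.

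The mean of the chains correlated at r = 0.28 with C3ar1, 0.24 with Itgam, 0.23 with Serping1 and 0.08 with C5ar1 (rho = 0.41, 0.19, 0.16 and 0.23; permutation p = 0.40, 0.45, 0.45 and 0.80, adjusted 0.60, 0.60, 0.60 and 0.80; for rho 0.19, 0.58, 0.64 and 0.47). Without PolyI:C 1 and control 4, the animals farthest from the median, these were 0.22, 0.16, 0.54 and 0.33. None passed.

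The same C1q mean followed the mean of the 17 microglia markers, none of which is a complement gene, at r = 0.88 (rho = 0.84; permutation p = 0.00071 for r and 0.0029 for rho, adjusted over 8 correlations 0.0057 and 0.023). Without PolyI:C 1 and control 4 it was 0.75. Without control 4 alone r was 0.83 and the adjusted p rose to 0.081. Both means come from the same arrays and share their scaling, and r was 0.86 after quantile normalization and 0.91 after centring on the array median. No other cell type's mean was correlated with the C1q mean, so whether the link is particular to microglia was not tested.

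The microglia mean itself stood at 6.72 ± 0.04 in controls and 6.70 ± 0.05 in PolyI:C offspring (SD, n = 6 each), a difference of -0.03 beside -0.06 for the C1q mean. None of the 17 markers passed, and means were lower for 14 and higher for 3. Selplg (-0.08 ± 0.03) and Sall1, a transcription factor of microglia (-0.10 ± 0.04), were the 2 with an unadjusted p under 0.05. Their limma adjusted p was 0.20 and 0.23. The summed linear level of the 17 markers ran from 2073 to 2254 in controls and from 2033 to 2243 in PolyI:C animals.

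**Figure D5:**
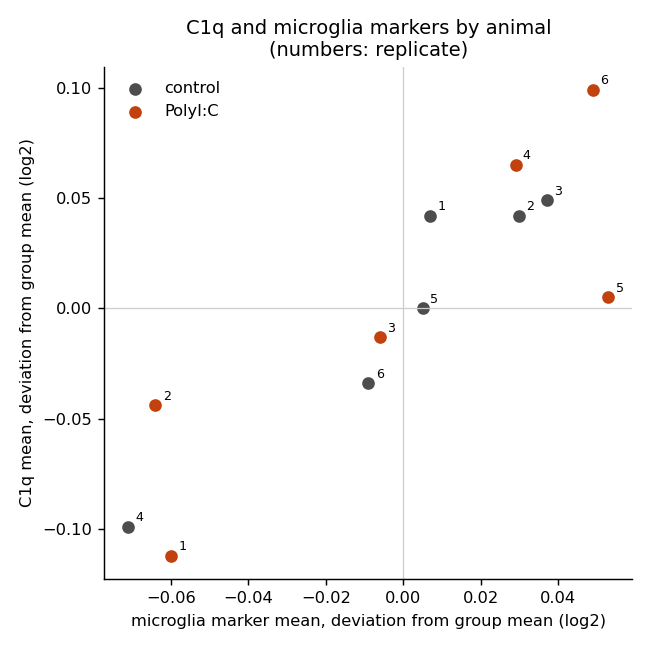
Mean log2 expression of C1qa, C1qb and C1qc (y axis) against that of 17 microglia markers (x axis), each as the deviation of an animal from its group mean, with replicate numbers beside the points. Control 4 and PolyI:C 1 are low in both, PolyI:C 6 is high in both, and r over the 12 animals is 0.88.

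By the rule for likeness, the single-gene probe sets that followed the C1q mean most closely over the 12 animals, after removal of group means, were Elk1 (r = 0.93), Ccny (0.86), Cdk18 (0.86), C8g (0.84) and Tab3 (0.84). They are the top of 16116 probe sets compared, 31 of which exceeded 0.8, and are given as a description.

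Markers of other cells were set beside these results, and their part in them was not tested. Of 9 measured astrocyte markers and 6 endothelial markers none passed (summed linear levels 5604 to 5909 against 5596 to 5797, and 841 to 877 against 835 to 876, controls first). The same held for 6 macrophage markers of the brain's borders, 5 of neutrophils, 5 of lymphocytes and 6 of choroid plexus, of which 3, 4, 2 and 3 were as dim as the silent receptors. Their summed levels overlapped between groups, at 122 to 133 against 124 to 131, 99 to 113 against 97 to 130, 99 to 107 against 99 to 109 and 117 to 125 against 115 to 125. For red blood cells 2 of 6 markers were measured and neither passed (74 to 86 against 73 to 90).

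Oligodendrocyte markers did move with the group. Of 7 measured 4 (57.1%) fell and none rose, beside 0.805% of all probe sets called as lower. Among the 4 were Mobp (-0.50 ± 0.09) and Cldn11 (-0.44 ± 0.08; limma adjusted p = 0.012 and 0.011, and 0.0749 and 0.0699 without moderation). The summed oligodendrocyte level ran from 1806 to 2323 in controls and from 1257 to 1837 in PolyI:C animals. Of 6 striatal markers 1 (16.7%) fell, Ppp1r1b (-0.27 ± 0.06, limma adjusted p = 0.028), and all 6 had lower means. The Ppp1r1b call was lost without control 2 or 6 or PolyI:C 1, 3 or 4 (limma adjusted p = 0.0512 to 0.0674). It was also lost with all rows tested (0.0631) and without moderation (0.103). Summed striatal levels ran from 437 to 677 in controls and from 403 to 469 after PolyI:C. Earlier work on these data had found controls 5 and 6 highest in striatal markers, so a smaller striatal difference without them was built in. Without these animals Ppp1r1b was at -0.181 (limma adjusted p = 0.0538). C5ar1 was then at -0.147 (limma adjusted p = 0.0364) and Cfp at 0.204 (limma adjusted p = 0.0312). The part of striatal tissue in the C5ar1 and Cfp differences was not tested. Of 4 sex-linked genes none passed and 3 had an unadjusted p under 0.05, among them Kdm5d (0.17 ± 0.05) and Eif2s3y (0.53 ± 0.17) of the Y chromosome (limma adjusted p = 0.051 and 0.088).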

How the data were processed

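Total RNA of micro-dissected medial prefrontal cortex was measured on Mouse Gene 1.1 ST strips (GeneAtlas), per the labels' protocols, which name both a 3' IVT and a whole-transcript kit. The authors deposited 1 log2 value for each probe set and array, as their range shows. The submitters' processing notes list Partek 6.6 and RMA, with no role or order. The genome build of the probe annotation is not stated in the labels. Between-array normalization makes arrays more alike, and its form here is not stated. Near the floor of the measurement, differences between samples can be compressed. The number of arrays limits the precision.

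Of 35556 probe sets 21218 carried 1 gene symbol in the platform annotation, 1881 several and 12457 none. Of the single symbols 21185 were matched to the RefSeq gene table (GRCm38.p6), whose symbol was then used. The 23099 annotated probe sets entered a limma 3.58.1 fit (lmFit, eBayes, R 4.3.3) of PolyI:C minus control, two-sided, with Benjamini-Hochberg adjustment over all of them. Each gene was read from its brightest single-gene probe set. Correlations used Python 3.11.15, numpy 2.4.6 and scipy 1.17.1, and plots matplotlib 3.10.9. With C3 and C4b unmeasured, 8 of the planned correlations remained. The fit was checked on simulated data with independent errors and shifts larger than the differences of the complement genes. That check does not speak for calls of their size.

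Members, lists, tests and alternatives were chosen with earlier results of these data known. Named were the 7 genes, and in each pathway role every gene past the adjusted threshold or with an unadjusted p under 0.05 and those with the lowest and highest difference. From other lists up to 3 genes of lowest p could be named, and Neurod6, Snap25 and Xist were named after their values were seen. Alternatives changed the scaling (quantile, median), the probe sets tested (2 brightness filters, all rows), the model (replicate block, array weights, trend and robust, no moderation) or the animals.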

Additional observations from a re-analysis of the deposited data

How the results depend on the processing

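The number of annotated probe sets called in limma was 414 with all rows tested, 122 without moderation and 230 to 818 when 1 animal was left out (868 at most, with the brightness filter at the 50th percentile), against 653. Replicate numbers did not pair the animals: deviations from group means of same-numbered animals correlated at -0.0922 to 0.11, and 1 of 6 numbers matched best with itself. With the replicate block no complement gene passed (C5ar1 -0.138, adjusted p = 0.0525, with 1 of 7 at an unadjusted p under 0.05), nor did any further pathway gene (0 in limma, 8 unadjusted). No complement gene passed under the filters at the 25th and 50th percentile (0 and 0 in limma, 0 unadjusted), which left 6 and 5 of the 7 in the test, and leaving out 1 animal gave 0 to 1.

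Further pathway genes called were 2 after quantile normalization, 2 under each brightness filter, 3 with trend and robust, 2 without controls 5 and 6, 0 with all rows (7 unadjusted), 0 without moderation (8 unadjusted) and 0 to 3 with 1 animal left out. The differences of C1qa, C1qb, C1qc and Serping1 kept their direction and did not pass under all 22 alternatives. With 1 animal left out C5ar1 ran from -0.152 to -0.129, C3ar1 from -0.037 to 0.018, Itgam from -0.014 to 0.032 (-0.008 after quantile normalization) and Cfb from -0.020 to 0.018, and Cfb was -0.009 after median centring and -0.015 without controls 5 and 6, which turned Masp1 to -0.018.

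The correlation of C1qb and C1qc was -0.01 after quantile normalization and -0.12 to 0.38 with 1 animal left out. That of the C1q mean ran from -0.09 to 0.33 with C5ar1 (-0.02 without controls 5 and 6), from -0.04 to 0.55 with C3ar1, from -0.04 to 0.58 with Itgam and from 0.83 to 0.95 with the microglia mean. The causes were not tested. No alternative probe set was tried for the 7 genes, since each has 1.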

Other observations

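Proteins with a C1q-like domain that act at synapses were read beside the complement genes, and none of 7 measured members passed in limma, with 2 at an unadjusted p under 0.05. C1ql1, secreted by neurons that contact Purkinje cells and present in oligodendrocyte precursors, ranged from 7.17 to 7.36 in controls and from 7.05 to 7.23 in PolyI:C animals, all 6 of which lay below the control mean (difference -0.12 ± 0.04, adjusted p = 0.10; -0.155 and 0.0464 after quantile normalization). Cbln2, a cerebellin that links neurexins across the synapse, was at 0.16 ± 0.06 (adjusted p = 0.16), and the other 5 had no unadjusted p under 0.05.

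Of 15 measured genes of reactive astrocytes none passed in limma, with 3 at an unadjusted p under 0.05. Osmr, a cytokine receptor subunit, was at -0.14 ± 0.04 (adjusted p = 0.085, and 0.0432 without control 4). Lcn2 was at 0.24 ± 0.10 (mean level 3.56) and Timp1, an inhibitor of metalloproteinases, at 0.07 ± 0.03 (mean level 3.73), both on dim probe sets and both with an adjusted p of 0.18.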
